A study of Drosophila melanogaster with 36 samples.

Results

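Small RNA pathway genes encode the machinery that makes microRNAs (miRNAs) and small interfering RNAs (siRNAs) and loads them into the silencing complex, RISC. The 10 genes described here were listed by name for their role in the pathway, with earlier results of these data known: drosha (CG8730), pasha (CG1800), Ranbp21 (CG12234), Dcr-1 (CG4792), loqs (CG6866), AGO1 (CG6671), gw (CG31992), Dcr-2 (CG6493), r2d2 (CG7138) and AGO2 (CG7439). They are 10 of the 14010 genes in the deposited table, and for each gene the transcript row with the most reads was kept. The study followed how temperature acts on the circadian clock and on its RNA processing in Drosophila melanogaster. All groups shared 1 genotype and tissue, heads of the Canton-S strain, with no transgene or mutation named in the labels, and differed in the temperature (18, 25 or 29°C) at which the flies were entrained, a period of 3 days or more. For its crosses, the study states that adults were newly eclosed when kept at 25°C or moved to the colder or warmer temperature, and it does not say so separately for these heads. The age at collection and the sex are not given in the sources used here. Heads were collected at Zeitgeber times (ZT, hours after lights on) 3, 7, 11, 15, 19 and 23, and polyadenylated RNA was read at its 3′ ends. Per the labels there were 36 libraries, 2 per temperature and time point, but the table holds 18 columns, 1 per temperature and time point. The 6 time points of a temperature therefore served as its units (n = 6 columns per temperature), and no value at a single time point has a replicate error.

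In flies, a long primary transcript is cut in the nucleus by Drosha with its partner Pasha, the resulting hairpin is exported, and Dicer-1 with a Loquacious isoform cuts it to a miRNA duplex that is loaded into AGO1. AGO1 recruits GW182, the product of gw, which brings deadenylation and decapping enzymes to the target mRNA. Dicer-2 and R2D2 form a separate line that cuts long double-stranded RNA into siRNAs and loads them into AGO2, the slicing Argonaute of antiviral RNA interference.

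The columns held between 736538 reads (18°C, ZT23) and 2750250 reads (29°C, ZT23), and 18°C ZT19 was the other shallow column with 784440 reads. All 8 photoreceptor markers were read at each temperature, as heads should show, but several marker sums moved with temperature. The photoreceptor sum lay between 27680 and 33470 normalised reads at 18°C and between 37360 and 48830 at 29°C, the sum over 4 glial markers between 1546 and 2082 at 18°C and between 753.2 and 973.4 at 29°C, and the sum over 4 flight muscle markers between 1053 and 1487 at 18°C and between 362.7 and 787 at 29°C. Fat body marker sums lay between 8547 and 15680 at 18°C, 2530 and 8207 at 25°C, and 3774 and 10240 at 29°C, where they overlapped those of 18°C. Sums over 6 neuron markers overlapped between all temperatures, with 152 to 285.1 at 18°C, 170.3 to 344.3 at 25°C and 107.7 to 301.4 at 29°C. The 29°C ZT19 column stood apart with a testis marker sum of 214.6, where no other column exceeded 12.4, and the 25°C ZT7 column with a flight muscle sum of 4716 against 1159 or less at the other 25°C time points. The part of these differences in the values below was not tested. In whole heads, fewer cells of a type and less RNA per cell cannot be told apart.

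Values are given as normalised reads, which are whole reads times 1 scaling step per column, and changes on the log2(normalised reads + 1) scale, which understates the change of low genes. Over all columns the genes held from 67 reads (pasha) to 2742 (AGO2), so counting error differed widely between them. All 10 passed the low-count filter. The plot of the 10 genes by temperature shows every column.

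**Figure D1:**
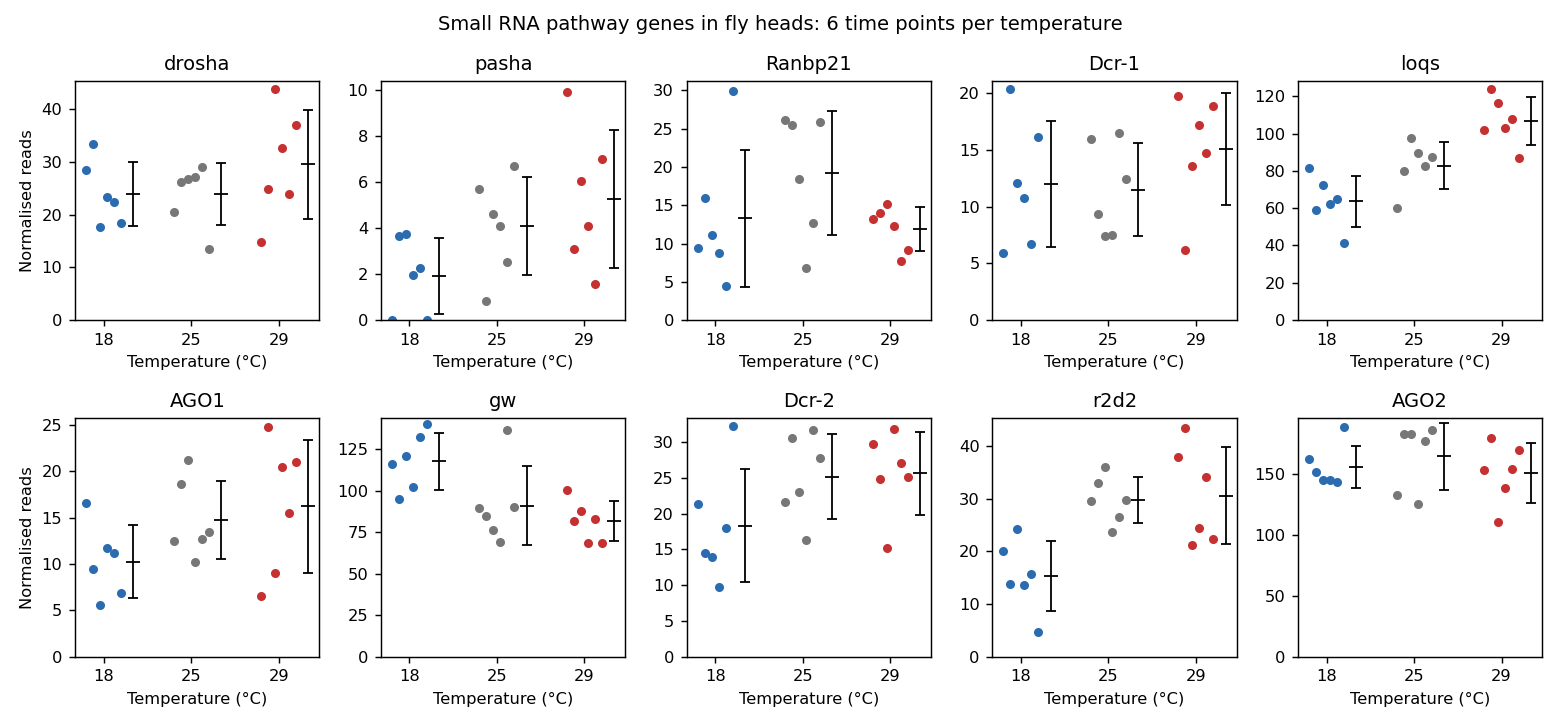
Normalised reads (y axis, from 0) of the 10 genes by temperature (x axis, °C). Each point is 1 of 6 time points, in the order ZT3 to ZT23 from left to right, and the bar beside them is the mean ± SD. The loqs points at 18°C (41.5 to 81.7) all lie below those at 29°C (86.7 to 124), while for most other genes the 3 temperatures overlap.

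Between 18 and 29°C, the widest span, 3 of the 10 genes changed. loqs and r2d2, which both encode double-stranded RNA binding partners of a Dicer, were lower at 18°C, and gw was higher. Over all 8791 genes tested, the same limma test with Benjamini-Hochberg adjustment called 27.9% (13.3% higher and 14.7% lower at 18°C), so 3 of 10 is close to the background share. The median log2 change of the 10 genes was -0.43 (18°C minus 29°C), beside -0.06 over all genes. Of the 10 estimates 2 were above 0, beside 46.0% of all genes with an estimate above 0, and 8 were below 0. The 8 include Ranbp21, at -0.03, and pasha, which had few reads. With library size or TMM scaling, 7 of the 10 were below 0 and the 3 calls held.

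The levels of loqs stood in the order of temperature, with the outer temperatures apart. loqs (2L, 13382648 to 13385674 in the table's coordinates, dm3) had a lowest, median and highest value of 41.5, 63.7 and 81.7 normalised reads at 18°C. The corresponding values were 60.2, 84.8 and 97.6 for the 25°C columns, and 86.7, 105.3 and 124 for those of 29°C. No 18°C column reached the lowest 29°C column, and loqs was lower at 18°C at 6 of 6 time points. Values of 6 columns failed to overlap in this comparison for 12.7% of all genes. The means were 63.7 ± 13.6, 82.8 ± 12.7 and 106.6 ± 12.9 (SD, n = 6) at 18, 25 and 29°C. The log2 change from 29 to 18°C was -0.76 (SE 0.15, adjusted p = 0.000512, limma), a level 0.592 of that at 29°C with a 95% interval of 0.476 to 0.737. Each of the smaller steps fell short of the threshold. From 25 to 18°C the log2 change was -0.39 (adjusted p = 0.0967, limma), and from 25 to 29°C it was 0.37 (adjusted p = 0.104). The first of these was called when ZT3 at 18°C or ZT3 at 25°C was left out (adjusted p = 0.026 and 0.0307, limma). The second was called without ZT23 at 25°C (adjusted p = 0.0431, limma). Over all alternatives these steps were called in 3 of 33 and in 1 of 32. Their adjusted p reached 0.345 without both shallow 18°C columns and 0.456 with library size scaling, respectively (limma). The table carries 3 transcript rows for loqs with 1 read profile between them, so its isoforms, one of which serves Dicer-1 and another Dicer-2, cannot be told apart here.

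r2d2 was low at 18°C, and its means at 25 and 29°C were close. The gene (2L, 7800189 to 7802008) had a lowest, median and highest value of 4.61, 14.8 and 24.2 normalised reads at 18°C. For the 25°C columns they were 23.8, 29.6 and 35.9, and for those of 29°C 21.2, 29.3 and 43.4. Only the highest 18°C column, ZT11, came above the lowest 25°C column, ZT15, and r2d2 was lower at 18 than at 25°C at 6 of 6 time points. Means were 15.3 ± 6.66, 29.8 ± 4.36 and 30.6 ± 9.19 (SD, n = 6) at 18, 25 and 29°C. The log2 change was -1.04 against 25°C (SE 0.27, adjusted p = 0.0115, limma) and also -1.04 against 29°C (SE 0.27, adjusted p = 0.00545). Between 29 and 25°C the fitted fold was 0.999, with a 95% interval of 0.677 to 1.47. The lowest r2d2 value, at 18°C ZT23, rested on 2 reads, and that at 18°C ZT19 on 7. Without these 2 shallow columns the log2 change was -0.77 against 25°C (adjusted p = 0.0755) and -0.76 against 29°C (adjusted p = 0.0453). The call against 25°C was also lost without ZT23 at 25°C (adjusted p = 0.0531), and it was lost without the ZT19 columns, without both 29°C ZT19 and 25°C ZT7, and in a fit of the 12 columns of these 2 temperatures (adjusted p = 0.0517, 0.0599 and 0.065), with log2 changes of -1.10, -1.06 and -1.04 in these 3 fits.

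gw ran the other way. The gene (chromosome 4, 670575 to 680563) had a lowest, median and highest value of 95.2, 118.5 and 140.5 normalised reads at 18°C. The 25°C columns gave 69.2, 87.3 and 136.8, and those of 29°C gave 68.5, 82.5 and 100.5. The groups overlapped, but at every one of the 6 time points gw was higher at 18 than at 29°C. Means were 117.9 ± 17.3, 91.2 ± 23.8 and 81.7 ± 12.1 (SD, n = 6). The log2 change from 29 to 18°C was 0.52 (SE 0.14, adjusted p = 0.00688, limma), a 1.44-fold higher level with a 95% interval of 1.17 to 1.76. Against 25°C it was 0.39 (adjusted p = 0.07), with the 25°C ZT19 column, at 136.8, above every 18°C column but ZT23. Without that column the change was 0.49 (adjusted p = 0.0304, limma). The change against 25°C was called in 3 of 33 alternatives, with adjusted p up to 0.254 (limma, library size scaling). The difference between 29 and 25°C was -0.13 (adjusted p = 0.572).

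Since loqs and gw moved in opposite directions, their ratio within a column, which no scaling can change, separated the extreme temperatures. The reads of loqs over those of gw ranged from 0.295 to 0.704 at 18°C, from 0.602 to 1.29 at 25°C and from 1.02 to 1.51 at 29°C. The ratio of r2d2 to gw ranged from 0.0328 to 0.2 at 18°C and from 0.241 to 0.528 at 29°C, again with no overlap. That of r2d2 to Dcr-2, its partner, overlapped at all temperatures, with medians of 0.947, 1.23 and 1.27 at 18, 25 and 29°C. These ratios use the values already tested. The pairs with gw join genes called in opposite directions between 18 and 29°C, which favours such a separation. The ratios are therefore a description and add no support to the calls.

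Against 25°C, the usual rearing temperature of flies, fewer of the 10 genes were called. At 18°C 1 of 10 was lower, r2d2, beside 13.4% of all genes called in either direction and 5.32% called lower. At 29°C none of the 10 was called by limma, beside 17.3% of all genes. 1 of 10, loqs, had an unadjusted p under 0.05 there, as had 2555 of all 8791 genes, and neither edgeR nor DESeq2 called any (0 of 10 each). The median log2 change of the 10 genes was -0.44 at 18°C, beside -0.01 over all genes, and 0.03 at 29°C, beside 0.04. A test for any difference among the 3 temperatures called loqs (adjusted p = 0.00162), r2d2 (0.00478) and gw (0.0142) by limma, that is 3 of 10 beside 33.0% of all genes. Without both shallow 18°C columns it called 1 of 10, loqs.

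**Figure D2:**
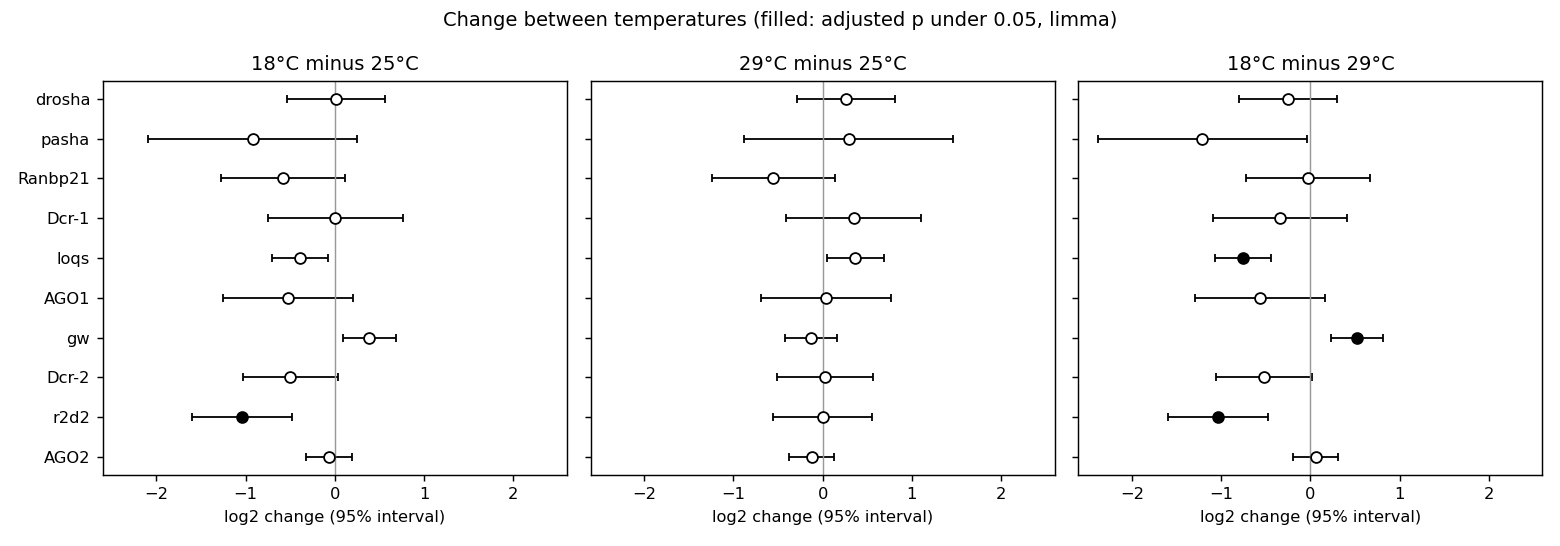
Log2 change of each gene between temperatures (x axis), with its 95% interval. Filled points passed an adjusted p of 0.05 in limma. They are r2d2 at 18 against 25°C (-1.04) and loqs (-0.76), r2d2 (-1.04) and gw (0.52) at 18 against 29°C, and the interval of pasha is the widest.

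Neither gene of the nuclear cut passed a temperature test. drosha (2R, 3819931 to 3824360), the RNase III enzyme that cuts primary transcripts, had means of 24 ± 6.04, 23.9 ± 5.88 and 29.5 ± 10.4 normalised reads (SD, n = 6) at 18, 25 and 29°C, and its columns ranged from 13.4 to 43.9. CG8728, on the opposite strand, ends 2 bases beyond it, so the assignment of reads at these ends is uncertain. The log2 change of drosha from 29 to 18°C was -0.25 with a 95% interval of -0.80 to 0.30. pasha (3R, 27443699 to 27447197), its RNA-binding partner and the homologue of human DGCR8, was near the detection limit. It held 0 reads at 18°C ZT3 and ZT23 and at most 10 reads in any column, with 12, 26 and 29 reads in all at 18, 25 and 29°C. Its means of 1.92 ± 1.65, 4.08 ± 2.13 and 5.28 ± 2.99 (SD, n = 6) stood in the order of temperature, but the log2 change from 29 to 18°C of -1.21 (95% interval -2.39 to -0.04) did not pass (adjusted p = 0.117, limma). Under the alternatives run this value ranged from -2.30 to -0.55 and passed in 0 of 32. The spread of pasha was close to that from counting alone, with an SD of 1.65 at 18°C where read counting gives 1.47.

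Ranbp21 (X, 19540617 to 19545958), the fly exportin-5 homologue, had means of 13.3 ± 8.96, 19.2 ± 8.11 and 11.9 ± 2.88 normalised reads (SD, n = 6). The 25°C columns ranged from 6.79 to 26.1 and the 29°C columns from 7.75 to 15.1, and ZT23 at 18°C was the highest of all at 29.9, on 13 reads. Its log2 change between 18 and 29°C was -0.03 with a 95% interval of -0.72 to 0.67. Read counting alone gives an SD of 4.49 at 18°C and of 3.84 at 29°C.

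Of the dicing enzymes, Dcr-1 held 229 reads in all and Dcr-2 held 397. Dcr-1 (3R, 18559727 to 18566752), which cuts miRNA hairpins, had means of 12 ± 5.53, 11.5 ± 4.08 and 15.1 ± 4.94 normalised reads (SD, n = 6) at 18, 25 and 29°C. Its columns ran from 5.92 (18°C ZT3) to 20.3 (18°C ZT7), so the lowest and the highest value came from neighbouring time points of 1 temperature. The log2 change from 29 to 18°C was -0.34, with a 95% interval of -1.10 to 0.41. Dcr-2 (2R, 13462484 to 13469011), the siRNA enzyme, had means of 18.3 ± 7.88, 25.2 ± 5.9 and 25.6 ± 5.8, and was lower at 18 than at 29°C at 5 of 6 time points. The exception was ZT23, where the 18°C column held the highest Dcr-2 value, 32.2 on 14 reads. The change of -0.52 (SE 0.26) did not pass (adjusted p = 0.142, limma). Annotated ends of Dcr-2 and of Rab4, on the opposite strand, share 1 base, and their values over the 18 columns had a Pearson r of 0.07.

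AGO1 (2R, 9834047 to 9843185), the Argonaute of miRNAs, had means of 10.2 ± 3.92, 14.8 ± 4.21 and 16.2 ± 7.19 normalised reads (SD, n = 6) at 18, 25 and 29°C. It was lower at 18 than at 29°C at 5 of 6 time points, ZT3 being the exception. The log2 change was -0.56 with a 95% interval of -1.29 to 0.17 (adjusted p = 0.255, limma), on 53 reads at 18°C and 101 at 29°C. AGO1 overlaps mRpL53 and CG33155, on the opposite strand, at its 5′ end but not at its 3′ end.

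AGO2 (3L, 15547217 to 15554146) passed no temperature test, and its reads may not be its own. Its means were 156.1 ± 17.5, 164.7 ± 27.7 and 151 ± 24.5 normalised reads (SD, n = 6) at 18, 25 and 29°C, and the log2 change between 18 and 29°C was 0.06 with a 95% interval of -0.20 to 0.31. The last 314 bases of AGO2 overlap the end of CG7739, a gene on the opposite strand. In all 18 columns CG7739 held the reads of AGO2 plus 0 to 12 more, 2817 against 2742 in total. The 2 profiles had a Pearson r of 0.99. Whether the counting used strand is not stated, so the reads of AGO2 and CG7739 cannot be told apart.

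**Figure D3:**
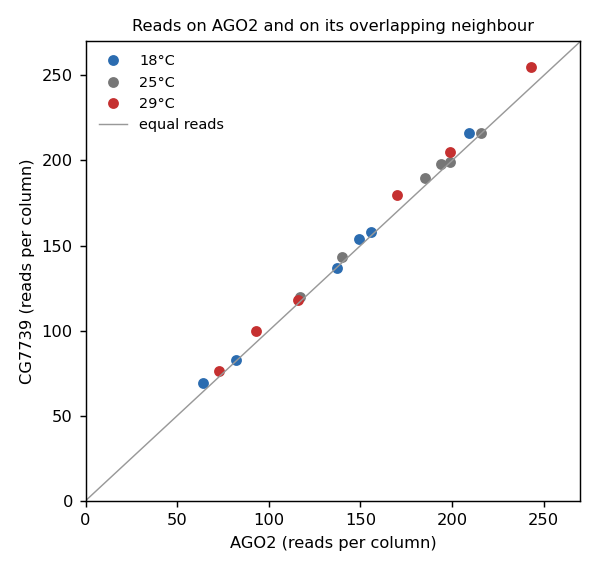
Whole reads on AGO2 (x axis) and on CG7739 (y axis) in each of the 18 columns, coloured by temperature. The grey line marks equal reads. All points lie on it or at most 12 reads above it.

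Over the day, no gene of the 10 passed. A shared 24 h rhythm, fitted to the 3 temperatures together, was called by limma for 0 of 10, beside 0.466% of all genes, and by edgeR for 0 of 10. In limma 1 of 10 had an unadjusted p under 0.05, as had 748 of all 8791 genes. That gene was Ranbp21 (adjusted p = 0.571, limma). Its means over the 3 temperatures were 16.3, 18.5 and 14.9 normalised reads at ZT3, ZT7 and ZT11, then 9.27 and 8.3 at ZT15 and ZT19, and 21.6 at ZT23. The low point at ZT15 or ZT19 was present at each temperature, whereas the ZT23 columns held 29.9 and 25.9 normalised reads at 18 and 25°C and 9.09 at 29°C.

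Dark phase columns (ZT15, ZT19, ZT23) against light phase columns (ZT3, ZT7, ZT11) gave 0 of 10 calls by limma, beside 0.375% of all genes, and 0 of 10 by edgeR. The 1 of 10 with an unadjusted p under 0.05 in limma, as 786 of all 8791 genes had, was r2d2, whose mean was lower in the dark at each temperature. It was 19.4 ± 5.22 in light and 11.3 ± 5.91 in dark at 18°C, 32.8 ± 3.19 and 26.7 ± 2.98 at 25°C, and 34.1 ± 11.6 and 27 ± 6.24 at 29°C (SD, n = 3 columns each). The log2 change of r2d2 was -0.47 (SE 0.22, adjusted p = 0.535, limma), and that of Ranbp21 was -0.47 (SE 0.27, adjusted p = 0.63). A rhythm that differs between temperatures was called by limma for 0 of 10, beside 0.0228% of all genes, with 0 of 10 at an unadjusted p under 0.05 and 0 of 10 by edgeR.

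**Figure D4:**
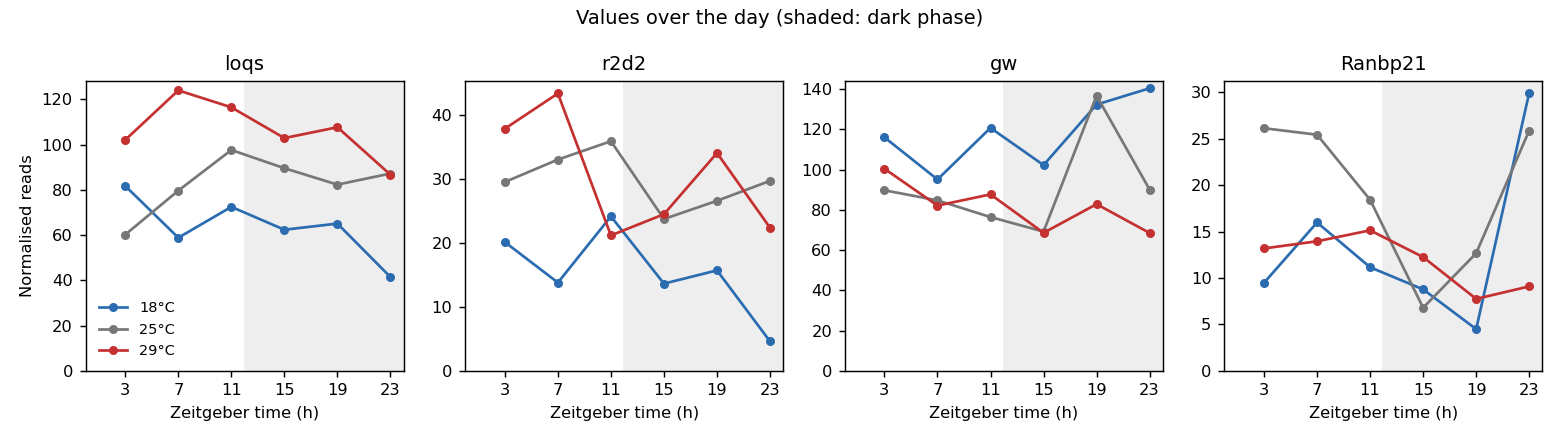
Normalised reads (y axis, from 0) of loqs, r2d2, gw and Ranbp21 over Zeitgeber time (x axis, hours), 1 line per temperature, with the dark phase shaded. The loqs line at 18°C stays below that at 29°C throughout, that of gw stays above, and Ranbp21 dips at ZT15 or ZT19 at every temperature.

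Among themselves the 10 genes showed no common profile in these values. Over 45 pairs the median Pearson r across the 18 columns, which share scaling, temperature and time, was -0.01. Counting error weakens such r values, and the spread of some genes, such as pasha, was close to it. The pairs with AGO2 rest on reads that may not be its own. A low r therefore cannot show that 2 of these genes differ in profile. The highest was 0.79, for loqs and r2d2, and the lowest -0.58, for loqs and gw. Of 6998 other genes that averaged 10 or more reads, those most like loqs were PIP5K59B (r = 0.92) and TwdlE (0.90), those most like r2d2 were CG17493 (0.89) and sordd2 (0.87), and those most like gw were CG41536 (0.86) and Cht6 (0.81). For AGO1 they were CR17024 (0.79) and bun (0.77), for Dcr-1 CAH2 and mim (0.75 each), and for Dcr-2 MED21 (0.84) and Set1 (0.83). After CG7739, the gene nearest to AGO2 was fl(2)d (0.85).

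Genes related to these 10 were counted in 4 lists. Of the enzymes that GW182 brings to a target, 18 of 20 deadenylation and decapping genes were tested, and 1 was called between 18 and 29°C, beside 27.9% of all genes. This was Not3, a subunit of the CCR4-NOT complex, lower at 18°C by a log2 change of -0.70 (adjusted p = 0.0254, limma), a call lost under 12 of 33 alternatives. Against 25°C, 2 of 18 were called at 18°C, beside 13.4% of all genes. Pop2, a deadenylase of CCR4-NOT, was lower at 18°C (36.1 ± 10.2 against 60.9 ± 14.3, log2 change -0.76) and tral, a decapping cofactor, was higher (73.2 ± 7.5 against 49.4 ± 7.87, log2 change 0.57). The call of tral was lost under 10 of 33 alternatives. At 29°C 1 of 18 was called, beside 17.3% of all genes. It was Not10, another subunit of CCR4-NOT, higher than at 25°C (56.9 ± 6.39 against 33.4 ± 6.09, log2 change 0.76).

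RISC cofactors and small RNA modifiers changed in both directions, with 7 of 15 tested called between 18 and 29°C, 3 higher and 4 lower at 18°C, beside 27.9% of all genes (13.3% higher and 14.7% lower). The largest changes were in Trax, a subunit of the C3PO nuclease that helps to activate RISC, at -1.85 (3.22 ± 3.24 normalised reads at 18°C, 12.3 ± 8.75 at 29°C), in bel, a DEAD-box helicase, at 0.93 (109.5 ± 18.1 and 58.3 ± 16.8), and in vig, a RISC-associated protein, at 0.88 (36.5 ± 7.15 and 19.4 ± 3.68). Against 25°C, 4 of 15 were called at 18°C, beside 13.4% of all genes. They included Tailor, which uridylates miRNA hairpins and was higher (log2 change 0.78), Tudor-SN, a nuclease found in RISC and higher (0.71), and mxt, which encodes an eIF4E-binding translation factor, lower (-0.50). At 29°C 1 of 15 was called against 25°C, beside 17.3% of all genes, and it was bel, which was lower (-0.77). The calls of Tailor, Tudor-SN and mxt were lost without both shallow 18°C columns, where the list held 1 call, and that of Tailor under 5 of 33 alternatives in all.

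Of the chaperones that load small RNA duplexes, 2 of 4 were called between 18 and 29°C, both lower at 18°C, beside 14.7% of all genes called lower. Hsc70-4 had means of 1510 ± 138.9, 2288 ± 254.7 and 2429 ± 361.8 normalised reads from the coldest to the warmest temperature, a log2 change of -0.68 between 18 and 29°C (adjusted p = 5e-06, limma), and Droj2, a DnaJ co-chaperone, changed by -0.40. The call of Droj2 was lost without the shallow columns (adjusted p = 0.0603). Of 24 piRNA genes, which act mainly in the gonads, only 8 passed the low-count filter, and 3 of 8 were called between 18 and 29°C, beside 27.9% of all genes. tud, which encodes a Tudor-domain protein of germ granules, was lower at 18°C (log2 change -0.68), as was tej (-0.49), and mino, which encodes a glycerol-3-phosphate acyltransferase, was higher (0.69), a call lost under 14 of 32 alternatives. Against 25°C, 0 of 8 were called at 18°C, beside 13.4% of all genes. At 29°C 2 of 8 were called, beside 17.3% of all genes, with tud higher (0.47) and Gasz lower (-1.23). The call of tud at 29°C was lost under 16 of 32 alternatives, and that of Gasz without ZT11 at 25°C (adjusted p = 0.0591, limma). DESeq2 called 0 of these piRNA genes between 29 and 25°C, so Gasz was not called there either. Without both shallow 18°C columns, tud and tej no longer passed between 18 and 29°C. tej also did not pass without the ZT19 columns of all temperatures (adjusted p = 0.0545, limma). It was called in 31 of 33 alternatives, among them the fit without only the 29°C ZT19 column, which had the high testis marker sum.

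**Figure D5:**
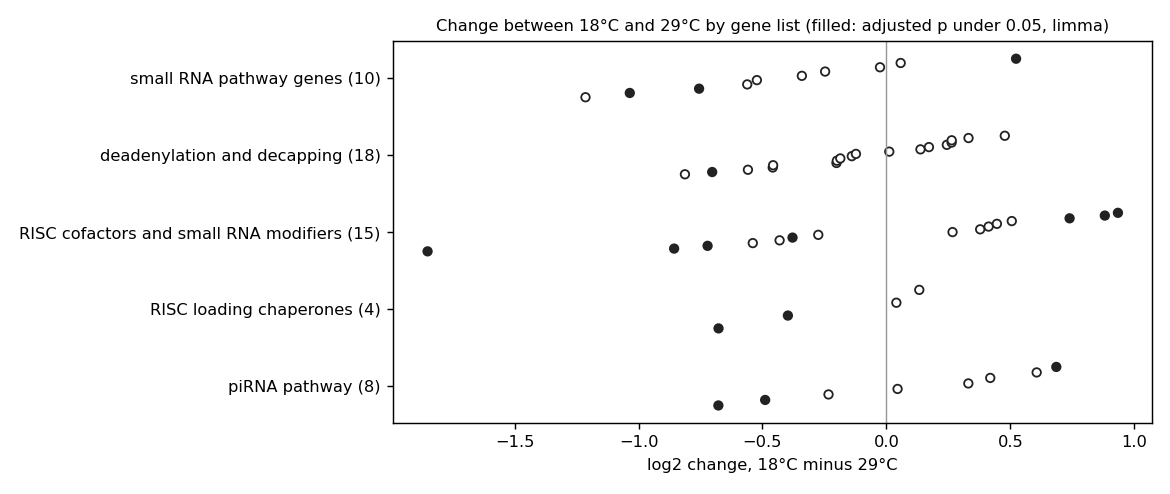
Log2 change between 18 and 29°C (x axis, 18°C minus 29°C) of each tested gene in the 10 small RNA pathway genes and in 4 lists of related genes, with the number tested in parentheses. Filled points passed an adjusted p of 0.05 in limma: 3 of 10, 1 of 18, 7 of 15, 2 of 4 and 3 of 8 from top to bottom.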

How the data were processed

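3′ RNA-seq was measured in 36 libraries. The deposited table holds 1 column of scaled signal per temperature and time point, which the authors made from read counts. The submitters' processing notes name Bowtie2, TopHat, Cufflinks and dm3, without their roles. How a column combines 2 libraries and the use of strand are not given in the sources used here. The table writes ZT19 where labels write zt18, and these were taken as 1 group. Dividing each column by its step gave whole reads for 100% of values (within 0.001 reads), which were used as recovered reads. No column of per-sample values was left unmapped. Symbols came from RefSeq, and strands from an Ensembl gene annotation.

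log2(signal + 1) was fitted by limma 3.58.1 (R 4.3.3, eBayes with trend) on temperature and time point over 18 columns for 8791 genes left by filterByExpr, with Benjamini-Hochberg adjustment at 0.05. Rhythms used a cosine and a sine of 24 h. Time points are not replicates. The p-values for temperature and for light phase therefore set a difference against the spread left after additive temperature and time effects. That spread holds differences in time course between temperatures together with library noise. The design named edgeR for raw counts of single libraries; with scaled signal, edgeR 4.0.16 on recovered reads was an alternative and called 1172, 1566 and 2296 genes (18 against 25°C, 29 against 25°C, 18 against 29°C), as was DESeq2 1.42.0. A test of alternative 3′ ends was not run because each of the 10 genes had 1 read profile. The limma, edgeR and DESeq2 fits were run on simulated data, edgeR and DESeq2 for part of the comparisons only. The simulation gave all genes the same dispersion and made the columns independent. It therefore cannot show how the fits behave on these data. Molecular identifiers are not stated, so the counting SDs, which assume independent reads, may be too small.

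The 10 genes and the lists were chosen with earlier results of these data known. Text names all 10, up to 3 called genes per list and comparison by size of change, and the 2 most similar genes by Pearson r for AGO1, AGO2, Dcr-1 and Dcr-2, and also, chosen after their values were seen, for loqs, r2d2 and gw. Alternatives covered pseudocounts, scaling, filters, columns left out, rows per gene and time terms. The fit without both shallow 18°C columns was added after seeing the data.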

Additional observations from a re-analysis of the deposited data

Results flagged for a closer look

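The 25°C ZT19 column of gw, at 136.8 normalised reads on 108 reads, lay far from the other 5 columns of that temperature, which ranged from 69.2 to 90.1. Of 30 groups of 6 columns checked in this way for the 10 genes, 1 stood out, where chance gives about 1.5. Leaving this column out moved the gw change between 18 and 25°C from 0.39 to 0.49 on the log2 scale.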

How the results depend on the processing

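Between 18 and 29°C, loqs, r2d2 and gw were called under all alternatives run (33, 32 and 33), with adjusted p from 9.65e-05 to 0.00814, 0.00173 to 0.0453 and 0.00378 to 0.0424 (limma, or edgeR and DESeq2 on the reads). Between 18 and 25°C the count of 1 of 10 was 2 with library size scaling (loqs and r2d2), and 0 without both 29°C ZT19 and 25°C ZT7, with only the 12 columns compared, and without both 18°C ZT19 and ZT23, and 0 to 2 with 1 column left out (0 without 25°C ZT23). Without the ZT19 columns the count stayed 1, but the gene was gw. Between 29 and 25°C it was 0 to 1 with 1 column left out. The test for any difference gave 1 of 10 in place of 3 without both shallow 18°C columns. Estimates near 0 changed sign. For r2d2 between 29 and 25°C the change was 0.0026 with a pseudocount of 5, and -0.0949 to 0.194 with 1 column left out. For AGO2 between 18 and 29°C it was -0.0361 to 0.108 with 1 column left out. For Ranbp21 between 18 and 29°C it was 0.0101 with a pseudocount of 5, 0.0224 with library size scaling, 0.003 with TMM, 0.0674 in edgeR, 0.055 in DESeq2, 0.103 without the ZT19 columns, 0.0268 without 29°C ZT19 and 25°C ZT7, and -0.276 to 0.147 with 1 column left out. Across all 4 signed comparisons, 83 of 1234 single-gene values changed sign, 0 of them for a gene in a comparison where it was called. The causes were not tested. Library size scaling moved the median of all genes from -0.01 to -0.14 (18 against 25°C) and from 0.04 to -0.13 (29 against 25°C), and the share of calls that were higher from 60.2% to 34.4% and from 61.2% to 31.0%. List counts at 18 against 29°C ranged from 0 to 4 (deadenylation and decapping), 5 to 7 (cofactors), 1 to 2 (chaperones) and 1 to 4 (piRNA). Leaving out 18°C ZT3, 18°C ZT7 or others of the columns ended the call of Not3. No paired analysis was possible because the columns carry no replicate number. Time point was a factor in the fit, and without it the counts of called genes between temperatures did not change. The test of alternative 3′ ends was not run. Depth limits pasha, with 3 reads or fewer in 8 of 18 columns.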
